A study of Mus musculus with 11 samples.

Results

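10 genes, Ccl27a, Hmgn2, Spc25, Aars2, Cpt1a, Grm8, Ablim1, Hcls1, Osbpl8 and Pisd-ps2, were followed across 11 mouse retinas because they had been lower in rd10 mice under saline and under the drug alike. They were selected by name on those measured differences, so the rd10 difference below is a description and carries no test. All 10 were matched by Ensembl identifier and symbol among the 37991 genes of the count table, and all 10 were among the 17099 genes that passed the filter on low counts. The question put to them is whether the drug moved them at all, where they lie in the genome, and what else they share.

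RNA came from the right-eye retina at postnatal day 24, with 1 library per animal. The rd10 mice, labelled B6.CXB1-Pde6brd10/Jrd10, carry a mutant allele of Pde6b, and the wild-type mice are labelled C57Bl/6J. Each strain received daily intraperitoneal GSK2879552 (GSK), an inhibitor of the histone demethylase LSD1 (gene Kdm1a), at 4.2 mg/kg or its saline vehicle from day 9 to day 24. The groups were 3 rd10 GSK, 3 rd10 saline, 3 wild-type GSK and 2 wild-type saline retinas. The allele is carried by every cell of the rd10 mouse, and strain and genotype cannot be told apart in these groups. The labels give neither sex nor litter.

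Pde6b encodes the beta subunit of the rod phosphodiesterase that breaks down cyclic GMP in the light response. Its loss of function lets cyclic GMP and calcium build up in rods, which then degenerate, while cones, inner neurons and Müller glia are at first spared. Microglia enter the outer retina as the rods die. LSD1 removes methyl groups from histone H3 at enhancers and promoters, and its inhibition had been proposed to keep rods alive in this strain.

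The libraries held between 19657030 and 28053367 counts. Levels are given as CPM, counts scaled to a common library size after trimmed-mean normalization, and differences as log2 fold changes with their standard error. A mean is followed by the SD over the animals of its group. Pde6b averaged 1376 ± 383 CPM in rd10 GSK, 362 ± 51.9 in rd10 saline, 2243 ± 35.4 in wild-type GSK and 2266 ± 49.8 in wild-type saline. Kdm1a averaged 97.4 ± 5.69, 86.2 ± 2.83, 100.5 ± 4.01 and 95.5 ± 0.583 CPM in the same 4 groups. All 12 listed rod markers were detected, and their sum, set against the mean of wild-type saline, was 40.2%, 63.5% and 77.7% in rd10 GSK replicates 1, 2 and 3, between 13.5% and 16.4% in rd10 saline, and between 92.6% and 96.8% in wild-type GSK. Lens transcripts reached 6669 CPM in rd10 GSK replicate 2 and 642 CPM in wild-type saline replicate 2, against 10.8 CPM or less elsewhere. Xist was at 0.338 CPM or less in rd10 GSK replicates 1 and 3, rd10 saline replicate 2 and wild-type GSK replicate 2. These libraries stand apart, and values without the lens-bearing ones are given for the 10 genes where a call was lost, for the neighbouring genes and for the companion genes.

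The start regions of the genes were read from RefSeq, build GRCm38.p6, as windows of 300 bases around the start of each transcript. Of the 10 genes, 9 had windows in the table, 18 in all, and Pisd-ps2 was named only. Shown are 4 windows, that of Ccl27a, the gene with the largest difference, and those of the 3 genes in which a motif was found. Capitals mark TGCTGA, the core of the element bound by the rod factor NRL and its MAF relatives, or its reverse complement TCAGCA.
Ccl27a, chr4:41774127-41774426, minus strand: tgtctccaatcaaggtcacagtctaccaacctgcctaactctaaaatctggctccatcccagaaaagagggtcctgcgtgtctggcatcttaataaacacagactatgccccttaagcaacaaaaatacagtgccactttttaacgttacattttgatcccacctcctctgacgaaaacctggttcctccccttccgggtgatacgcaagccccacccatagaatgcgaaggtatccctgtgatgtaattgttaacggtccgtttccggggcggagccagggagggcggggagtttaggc
Spc25, chr2:69206164-69206463, minus strand: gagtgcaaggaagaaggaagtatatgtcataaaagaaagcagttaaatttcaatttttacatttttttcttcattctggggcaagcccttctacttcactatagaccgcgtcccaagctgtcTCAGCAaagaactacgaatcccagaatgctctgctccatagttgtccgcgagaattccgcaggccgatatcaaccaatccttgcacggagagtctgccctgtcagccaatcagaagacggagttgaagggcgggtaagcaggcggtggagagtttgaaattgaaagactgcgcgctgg
Aars2, chr17:45506582-45506881, plus strand: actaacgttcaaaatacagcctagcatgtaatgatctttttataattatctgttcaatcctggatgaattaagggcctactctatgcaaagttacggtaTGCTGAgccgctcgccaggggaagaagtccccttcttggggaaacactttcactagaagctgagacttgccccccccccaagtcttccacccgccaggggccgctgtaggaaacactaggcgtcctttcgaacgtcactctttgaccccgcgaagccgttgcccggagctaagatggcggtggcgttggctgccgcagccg
Ablim1, chr19:57314870-57315169, minus strand: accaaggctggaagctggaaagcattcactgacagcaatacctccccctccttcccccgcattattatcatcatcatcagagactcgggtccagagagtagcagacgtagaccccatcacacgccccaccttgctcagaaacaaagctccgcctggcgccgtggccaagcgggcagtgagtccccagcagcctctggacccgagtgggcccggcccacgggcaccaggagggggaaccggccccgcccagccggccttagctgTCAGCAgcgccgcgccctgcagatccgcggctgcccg
The core TGCTGA was found on either strand in 4 of the 18 windows (22.2%), those of Spc25, Aars2 and Ablim1, and in 19.5% of all 32851 windows of this length in the table. Read on the gene's own strand alone, it was left in 2 of the 18 (11.1%), both of Aars2, and in 10.4% of all windows. These 2 windows of Aars2 overlap and hold the same match, which is thus counted in each. The core TAATCC, the letters bound by the photoreceptor factor CRX, was found on either strand in 0 of the 18 windows and in 7.06% of all windows, so no overlap between both motifs arose. Ccl27a held neither. A match of letters is a description of the window and not a bound site.

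Among the 10 genes every rd10 retina stood below every wild-type retina, a pattern found in 9.84% of all tested genes. With an adjusted p under 0.05, all 10 counted as lower in rd10 GSK against wild-type GSK, where 10.9% of tested genes were lower and 15.4% higher. All 10 also counted as lower in rd10 saline against wild-type saline, where 19% of tested genes were lower and 21.5% higher. Both contrasts together held 6.7% of tested genes, or 1146. Spc25 lost its place in both arms without the lens-bearing libraries (-1.49 under GSK, -1.65 under saline), in the saline arm without wild-type saline replicate 1 (-1.41), and in the GSK arm when those groups were fitted alone (-1.51). The choice of the genes fixes these counts, and nothing is read from them. The median log2 difference of the 10 was -0.82 in the GSK arm and -0.77 in the saline arm, beside 0.01 and 0.02 over all tested genes. Ordered by size among the 1146, they ranged in the GSK arm from place 5 (Ccl27a) to place 279 (Osbpl8), and in the saline arm from place 9 (Ccl27a) to place 642 (Grm8). In a whole retina, fewer cells of a type and less RNA per cell cannot be told apart.

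**Figure D1:**
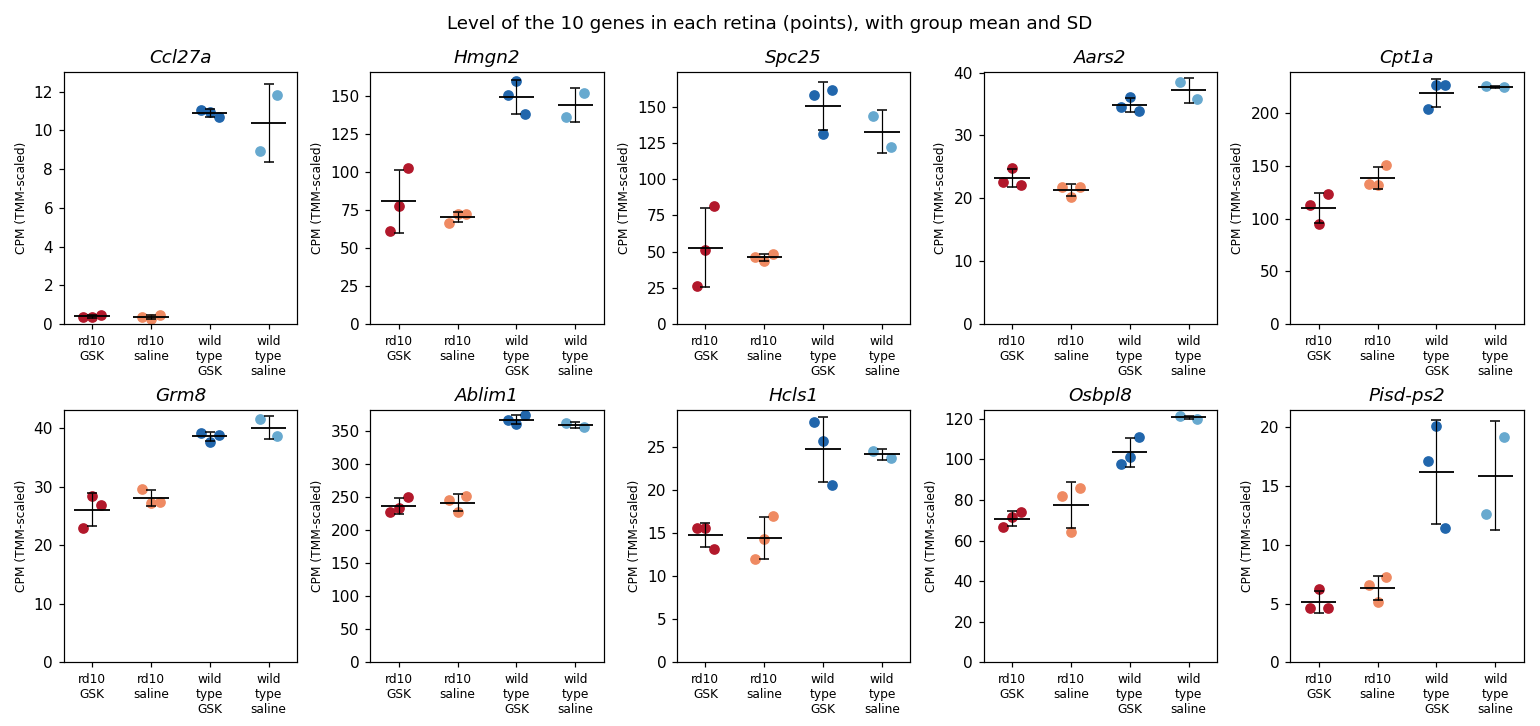
Level of each of the 10 genes (CPM after trimmed-mean scaling, axes from 0) in each retina, shown as points, with the group mean as a line and the SD as a bar, for rd10 GSK, rd10 saline, wild-type GSK and wild-type saline. In every panel the 6 rd10 points lie below the 5 wild-type points, and Ccl27a lies at 0.487 CPM or less in rd10 against 8.95 CPM or more in wild type.

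Ccl27a encodes a chemokine that draws lymphocytes carrying the receptor CCR10, best known from skin. It read 0.347, 0.369 and 0.470 CPM in the rd10 GSK retinas, 0.349, 0.277 and 0.487 in rd10 saline, 11.0, 11.0 and 10.7 in wild-type GSK, and 8.95 and 11.8 in wild-type saline. These values rest on 9, 8 and 11 counts in rd10 GSK, 8, 6 and 12 in rd10 saline, 273, 292 and 233 in wild-type GSK, and 187 and 269 in wild-type saline. The rd10 level was 3.63% of wild type under GSK and 3.57% under saline, and the rd10 retinas overlapped each other whichever agent was given. The log2 difference was -4.77 ± 0.20 in the GSK arm and -4.77 ± 0.21 in the saline arm. While the rod marker sum ran from 13.5% to 77.7% of wild type across the 6 rd10 retinas, Ccl27a stayed between 0.277 and 0.487 CPM. Choosing genes low in both rd10 groups favours such a narrow range, and nothing is read from it.

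The counts of this gene are uncertain in more than 1 respect. Of the 50-base stretches of its annotated transcripts, 45% also occur in transcripts of other genes, chiefly Gm20878 (28.4%) and Gm13306 (22%), and a read from such a stretch has no single place. Gm20878 and Gm13306 held 3 counts or fewer in every library, rd10 or wild type. Ccl27b, another copy, was not analysed here. Ccl27a also shares 8 exon bases with Il11ra1, a receptor gene on the opposite strand, and how the counting treated strand is not stated in the labels. Il11ra1 averaged 11.9 ± 1.72 CPM in rd10 GSK, 11.7 ± 0.629 in rd10 saline, 17.0 ± 1.49 in wild-type GSK and 15.1 ± 0.960 in wild-type saline. It fell in rd10 in both arms, by 0.51 ± 0.11 under GSK (edgeR adjusted p = 0.00685) and by 0.37 ± 0.12 under saline (edgeR adjusted p = 0.029). Of the 4 tested companions of Ccl27a, chemokines and CCR10 among them, it alone passed in either genotype contrast, while Ccl19 held 0 counts in all libraries.

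Genes beside Ccl27a on chromosome 4 were lower as well. Neighbours were taken as the 5 nearest tested genes on each side, in the order of gene starts in the GENCODE M21 annotation (GRCm38). Of the 10 beside Ccl27a, 5 were lower in rd10 in both arms, namely Galt, Gm17167, Gm10600, Phf24 and Vcp, and none was higher in either arm. Il11ra1, also lower in both arms, comes 6th in that order and is outside the 10. Without the lens-bearing libraries, a count chosen after seeing the data, 4 of the 10 stayed lower in both arms, and Vcp did not pass under saline. Gm17167 held 0 counts in all 6 rd10 retinas, against 53, 47 and 50 counts in wild-type GSK and 37 and 35 in wild-type saline. Gm10600 likewise held 0 counts in all 6 rd10 retinas, against 16, 7 and 14 counts in wild-type GSK and 17 and 13 in wild-type saline. With a floor of 3 counts per library, Gm17167 was at least 16.2-fold lower in the GSK arm and at least 12.7-fold lower in the saline arm, and Gm10600 at least 4.06-fold and at least 5.31-fold lower. Their groups do not overlap in either arm.

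The other 3 differed by smaller amounts. Galt, which encodes an enzyme of galactose breakdown, read 22.7, 22.6 and 27.0 CPM in rd10 GSK, 20.2, 22.8 and 18.7 in rd10 saline, 34.0, 34.7 and 33.9 in wild-type GSK, and 29.8 and 32.2 in wild-type saline. It fell in rd10 by 0.51 in the GSK arm and by 0.59 in the saline arm on the log2 scale (edgeR adjusted p = 0.00262 and 0.000609). Phf24 fell by 0.33 and 0.34, and Vcp, an ATPase that extracts proteins for degradation, fell by 0.23 and 0.14 in the GSK and saline arms.

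Beside the remaining genes such neighbours were fewer. Of all tested genes 6.7% were lower in both arms. Over all 10 genes, 10 of 93 neighbours were (10.8%), 5 of them beside Ccl27a. With 10 neighbours a side the count was 18 of 183 (9.84%), 6 of them beside Ccl27a. Without the lens-bearing libraries it was 6 of 93 (6.45%), where 2.6% of all tested genes were, the 6 being Galt, Gm17167, Gm10600, Phf24, Stk39 and, beside Aars2, Capn11. With every library, the count was 1 of 10 for Hmgn2 (Dhdds), Spc25 (Stk39), Ablim1 (Ccdc186) and Osbpl8 (Zdhhc17), 1 of 7 for Cpt1a (Ppp6r3), and 0 for Aars2, Grm8, Hcls1 and Pisd-ps2. Stk39, a kinase gene, differed most of these, at 53.7 ± 3.76 CPM in rd10 GSK and 46.3 ± 1.48 in rd10 saline, against 74.2 ± 3.20 in wild-type GSK and 75.9 ± 0.884 in wild-type saline. None of the 10 genes lies on chromosome 5, which carries Pde6b. They lie on 7 chromosomes, with pairs on 4 (Ccl27a and Hmgn2), 17 (Aars2 and Pisd-ps2) and 19 (Cpt1a and Ablim1). Around Pde6b itself 1 of 10 neighbours, Atp5k, was lower in both arms.

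**Figure D2:**
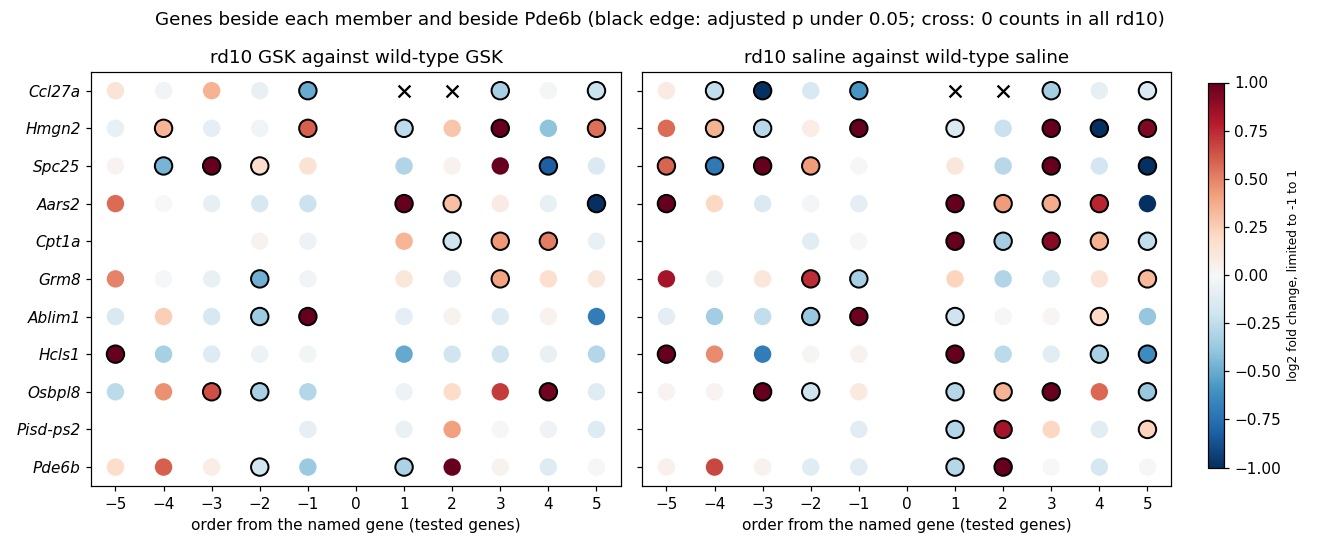
Log2 fold change (colour, limited to -1 to 1) of the 5 nearest tested genes on each side of each of the 10 genes and of Pde6b, with rd10 GSK against wild-type GSK on the left and rd10 saline against wild-type saline on the right; the horizontal axis is the order of tested genes from the named gene. The row of Ccl27a has 5 of 10 neighbours lower in both arms, including the 2 genes at 0 counts in all rd10 libraries, drawn as crosses.

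Hmgn2 encodes a small protein that binds nucleosomes and loosens chromatin. Its level was 61.5, 78.0 and 103 CPM in rd10 GSK, 66.3, 72.4 and 72.5 in rd10 saline, 151, 160.4 and 138 in wild-type GSK, and 136 and 152 in wild-type saline. The rd10 GSK retinas spread more widely than any other group and reach the furthest towards wild type without meeting it. The rd10 difference was -0.89 ± 0.15 in the GSK arm and -1.04 ± 0.17 in the saline arm on the log2 scale. Here too copies matter, since 25.4% of its 50-base stretches occur in other genes. Of those copies Gm10282, which shares 23.8%, fell in rd10 by 0.85 under GSK (edgeR adjusted p = 0.0282) and by 1.14 under saline (edgeR adjusted p = 0.00761), and Hmgn2-ps1 and Gm10357 were also lower in both arms.

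Spc25 encodes a subunit of the NDC80 complex, which ties kinetochores to spindle microtubules in dividing cells. Its level was 26.2, 50.9 and 81.3 CPM in rd10 GSK, 46.2, 43.8 and 48.1 in rd10 saline, 158, 131 and 162 in wild-type GSK, and 143 and 122 in wild-type saline. Of the GSK-treated rd10 retinas, that at 26.2 CPM lies below the saline-treated ones, and those at 50.9 and 81.3 CPM lie above them. The rd10 difference was -1.51 ± 0.34 in the GSK arm and -1.53 ± 0.37 in the saline arm. No 50-base stretch of it occurs in another gene.

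In these retinas Spc25 stood apart from the rest of its complex. Scaled per kilobase of exon as well as by library (RPKM), it averaged 16.6 ± 8.64 in rd10 GSK, 14.4 ± 0.682 in rd10 saline, 47.2 ± 5.22 in wild-type GSK and 41.7 ± 4.69 in wild-type saline. On that scale its partners Ndc80, Nuf2 and Spc24 stayed at 0.283 or less in every group mean. Sums of 6 proliferation markers, all detected, ran from 2.01 to 16.8 CPM in rd10 GSK and from 19.9 to 26.8 in rd10 saline, against 0.889 to 1.05 in wild-type GSK and 1.01 in each wild-type saline retina. Between genotypes, Spc25 was thus lower where these markers were higher. Inside rd10 that order was not kept. In rd10 GSK replicates 1, 2 and 3 the marker sum was 9.90, 16.8 and 2.01 CPM, and Spc25 read 26.2, 50.9 and 81.3 CPM. Of the 9 other tested kinetochore genes, edgeR called 0 in the GSK arm, with 2 at an unadjusted p under 0.05 and 1 call each by limma-voom and DESeq2. In the saline arm 1 was higher, Ndc80 (2.79 ± 0.63, edgeR adjusted p = 0.00427), which lies under the level set for naming companions and is named after its values were seen. The 1 lower gene was Mis12 (-0.21 ± 0.08, edgeR adjusted p = 0.0409).

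Inside the rd10 GSK group Hmgn2 and Spc25 followed the order of the rod marker sum, as did Ablim1, Osbpl8 and Ccl27a. Aars2, Cpt1a, Grm8, Hcls1 and Pisd-ps2 did not. The share of all tested genes that keep this order was not counted. The retina with the lowest rod sum (40.2% of wild-type saline) had the lowest level of Hmgn2 and of Spc25. That with the highest rod sum (77.7%) had the highest level of each. Across groups the order does not carry over, since rd10 saline retinas, with rod sums of 16.4% or less, held more Spc25 than the GSK-treated retina at 40.2%. Other marker sums ran in the same order over those 3 GSK-treated retinas, at 68.6%, 79.8% and 96.5% of wild-type saline for Müller glia, 47.9%, 80.1% and 83.4% for cones and 84.2%, 90.0% and 93.9% for amacrine cells, as did the bipolar and ganglion cell sums, and the microglia and leukocyte sum ran in the opposite order, at 209, 132 and 86.2 CPM. The part of rods or of these cells in any of these genes was not tested. Over the 11 retinas the correlation with the mean rod profile ran from 0.58 (Cpt1a) to 0.86 (Hmgn2) over the 10 genes, with 0.83 for Aars2, 0.80 for Spc25 and 0.79 for Ccl27a. These values are a description. The points span both genotypes, between which the genes were chosen to differ and the rod markers differ too. Both values of a point come from the same library.

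**Figure D3:**
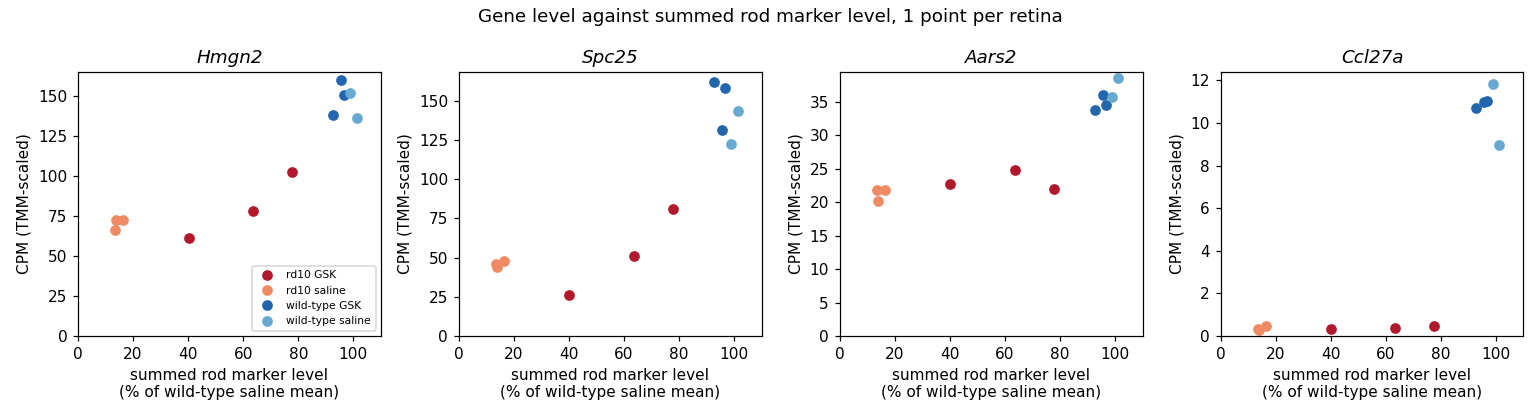
Level of Hmgn2, Spc25, Aars2 and Ccl27a (CPM, axes from 0) against the summed level of 12 rod markers (in percent, wild-type saline mean = 100%), 1 point per retina, coloured by group. The 3 rd10 GSK points spread from 40.2% to 77.7% along the rod axis while Aars2 stays between 22.0 and 24.8 CPM and Ccl27a between 0.347 and 0.470 CPM in them. The genes were chosen as low in both rd10 groups, which favours narrow ranges of this kind.

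The wider HMG families were tested beside Hmgn2. Of 6 tested relatives, 0 rose and 2 fell in rd10 in the GSK arm, and 2 rose and 2 fell in the saline arm. Hmgn1, the closest relative by function, averaged 707 ± 73.4 CPM in rd10 GSK, 356 ± 8.52 in rd10 saline, 773 ± 27.0 in wild-type GSK and 714 ± 47.9 in wild-type saline. It fell by 1.00 ± 0.08 in rd10 under saline (edgeR adjusted p = 5.98e-06) and rose by 0.99 ± 0.08 with GSK in rd10 (edgeR adjusted p = 6.85e-06), when all 12 rod markers rose as well. The drug-treated arms differed by -0.13 ± 0.07 (edgeR adjusted p = 0.23). Hmgb2, an HMG-box protein, fell by 0.95 ± 0.29 in rd10 under saline (edgeR adjusted p = 0.027) and rose by 0.85 ± 0.26 with GSK in rd10 (edgeR adjusted p = 0.0364). Its GSK-arm difference was -0.64 ± 0.26 (edgeR adjusted p = 0.0944). Hmgn3 and Hmgn5 rose in rd10 under saline, by 0.26 and 0.25, and fell in the GSK arm, by 0.20 and 0.29.

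Aars2 encodes the mitochondrial alanyl-tRNA synthetase. It read 22.7, 24.8 and 22.0 CPM in rd10 GSK, 21.8, 20.2 and 21.9 in rd10 saline, 34.5, 36.1 and 33.8 in wild-type GSK, and 38.6 and 35.8 in wild-type saline. The retinas of a group lie close together, and the highest rd10 retina, at 24.8 CPM, lies well below the lowest wild-type retina, at 33.8 CPM. The difference was -0.59 ± 0.07 in the GSK arm and -0.80 ± 0.08 in the saline arm. Among 17 tested relatives, the other mitochondrial aminoacyl-tRNA synthetases and cytosolic Aars, 1 rose and 1 fell in rd10 in the GSK arm, and 0 rose and 3 fell in the saline arm. Those 3, Mars2 (-0.43 ± 0.14), Rars2 (-0.25 ± 0.08) and Tars2 (-0.23 ± 0.07), charge methionine, arginine and threonine tRNAs, and their edgeR adjusted p lay between 0.0216 and 0.0313. Mars2 rose by 0.66 ± 0.13 with GSK in rd10 (edgeR adjusted p = 0.0025).

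Cpt1a encodes the carnitine palmitoyltransferase that sets the rate at which fatty acids enter mitochondria. It read 113, 95.2 and 123 CPM in rd10 GSK, 133, 132 and 151 in rd10 saline, 204, 227 and 227 in wild-type GSK, and 226 and 224 in wild-type saline. Every GSK-treated rd10 retina stands below every saline-treated one, and the wild-type groups overlap. The rd10 difference was -0.99 ± 0.09 in the GSK arm and -0.70 ± 0.10 in the saline arm.

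Genes of the same pathway moved in both directions. Of 12 tested genes of the carnitine shuttle and beta-oxidation, 1 rose and 4 fell in rd10 in the GSK arm, and 6 rose and 5 fell in the saline arm. Ppara, the receptor that switches on fatty acid oxidation genes, averaged 10.0 ± 1.69 CPM in rd10 GSK, 3.12 ± 1.10 in rd10 saline, 16.1 ± 1.44 in wild-type GSK and 17.2 ± 0.587 in wild-type saline. It fell by 2.45 ± 0.22 in rd10 under saline (edgeR adjusted p = 1.55e-05) and rose by 1.67 ± 0.21 with GSK in rd10 (edgeR adjusted p = 0.000202), opposite to the sign of Cpt1a. Acadvl and Acadm, dehydrogenases for very long and medium chains, fell under saline by 0.96 and 0.94 and rose with GSK in rd10 by 0.30 and 0.47. In the GSK arm Ppara, Acadvl and Acadm were still lower in rd10, by 0.68, 0.45 and 0.28 (edgeR adjusted p = 0.0233, 0.00231 and 0.00863). All 4 genes that fell in the GSK arm had also fallen under saline. Over all tested genes, 1859 were lower in the GSK arm, and 1146 of these were also lower under saline. Nothing is read from the count of 4. Slc25a20, the carrier that takes acylcarnitine across the inner membrane, rose by 0.63 ± 0.14 in rd10 under saline (edgeR adjusted p = 0.00425) and fell by 0.57 ± 0.12 with GSK in rd10 (edgeR adjusted p = 0.00457). Rod markers rose with GSK in rd10 in the same libraries, 12 of 12, and their part in these changes was not tested.

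Osbpl8 encodes ORP8, which exchanges phosphatidylserine for a phosphoinositide where the endoplasmic reticulum meets the plasma membrane. It read 66.7, 71.6 and 74.0 CPM in rd10 GSK, 81.8, 64.4 and 85.9 in rd10 saline, 98.0, 101 and 111 in wild-type GSK, and 121 and 120.1 in wild-type saline. The rd10 groups overlap, while the wild-type groups do not. The difference was -0.55 ± 0.09 in the GSK arm and -0.64 ± 0.10 in the saline arm. Of 11 tested relatives, 2 rose and 2 fell in rd10 in the GSK arm, and 3 rose and 1 fell in the saline arm. Osbp2, a member of the family known from retina, fell by 1.32 ± 0.14 in rd10 under saline (edgeR adjusted p = 6.00e-05) and rose by 0.95 ± 0.13 with GSK in rd10 (edgeR adjusted p = 0.000448). Osbpl3, Osbpl6 and Osbpl5 rose in rd10 under saline by 0.81, 0.41 and 0.35.

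Pisd-ps2 is a pseudogene of Pisd, whose enzyme makes phosphatidylethanolamine from phosphatidylserine in mitochondria. It read 4.62, 6.23 and 4.61 CPM in rd10 GSK, 6.55, 5.17 and 7.22 in rd10 saline, 17.1, 20.1 and 11.4 in wild-type GSK, and 12.6 and 19.1 in wild-type saline. The wild-type retinas spread over a wide range, and the lowest still stands above the highest rd10 retina. The difference was -1.66 ± 0.24 in the GSK arm and -1.33 ± 0.26 in the saline arm. Of its 50-base stretches 19.2% occur in other genes, including 9.9% in Pisd and 5.16% in Pisd-ps1. Pisd-ps1 averaged 14.8 ± 4.19 CPM in rd10 GSK, 16.5 ± 4.57 in rd10 saline, 52.2 ± 12.3 in wild-type GSK and 53.4 ± 14.2 in wild-type saline. It fell in rd10 by 1.82 ± 0.30 under GSK (edgeR adjusted p = 0.00395) and by 1.69 ± 0.32 under saline (edgeR adjusted p = 0.00314). The parent gene Pisd was higher in rd10, by 0.25 and 0.45 in the same arms, and did not pass. Ptdss2, which makes phosphatidylserine, fell by 0.36 ± 0.07 under saline (edgeR adjusted p = 0.00114), and Ptdss1, with the same product, rose by 0.15 ± 0.05 (edgeR adjusted p = 0.0321).

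Grm8 encodes a metabotropic glutamate receptor that dampens transmitter release. It read 23.0, 28.5 and 26.9 CPM in rd10 GSK, 29.7, 27.2 and 27.4 in rd10 saline, 39.3, 37.7 and 38.9 in wild-type GSK, and 41.6 and 38.7 in wild-type saline. The groups of a genotype overlap, whichever agent was given. It shares 96 exon bases with the microRNA gene Mir592 on the same strand. The difference was -0.57 ± 0.08 in the GSK arm and -0.51 ± 0.09 in the saline arm. Its relative Grm6, the receptor with which ON bipolar cells sense glutamate from photoreceptors, rose by 0.27 ± 0.07 in rd10 under saline (edgeR adjusted p = 0.00746) and fell by 0.23 ± 0.06 in the GSK arm (edgeR adjusted p = 0.0192). Beside it, the 12 bipolar markers, which include Grm6, summed to between 1696 and 1785 CPM in rd10 GSK and between 2395 and 2449 in rd10 saline, against 2092 to 2122 in wild-type GSK and 2022 to 2027 in wild-type saline. Grm8 was lower in rd10 in both arms, while the bipolar sum was lower under GSK and higher under saline.

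Ablim1 encodes an actin-binding LIM protein with a long form known from retina. It read 227, 233 and 249.8 CPM in rd10 GSK, 246, 227 and 251 in rd10 saline, 366, 361 and 374 in wild-type GSK, and 362 and 356 in wild-type saline. The retinas of each genotype overlap, and the genotypes are far apart. The difference was -0.63 ± 0.06 in the GSK arm and -0.57 ± 0.06 in the saline arm.

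Hcls1 encodes a cortactin-like adaptor of blood cells that is phosphorylated by Lyn and Syk. It read 15.5, 15.5 and 13.2 CPM in rd10 GSK, 12.0, 14.3 and 17.0 in rd10 saline, 27.9, 25.7 and 20.6 in wild-type GSK, and 24.6 and 23.7 in wild-type saline. The highest rd10 value, 17.0 CPM, is close to the lowest wild-type value, 20.6 CPM. The difference was -0.74 ± 0.14 in the GSK arm and -0.74 ± 0.15 in the saline arm. Leukocyte genes went the other way. The 10 microglia and leukocyte markers, all detected, summed to between 86.2 and 209 CPM in rd10 GSK and between 294 and 377 in rd10 saline, against 55.0 to 57.6 in wild-type GSK and 51.4 to 52.6 in wild-type saline.

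Partners of Hcls1, among them leukocyte genes, were tested as well. Of 10 tested, 4 rose and 0 fell in rd10 in the GSK arm, and 5 rose and 0 fell in the saline arm. Lyn averaged 12.3 ± 7.27 CPM in rd10 GSK, 19.96 ± 0.0788 in rd10 saline, 3.30 ± 0.229 in wild-type GSK and 3.36 ± 0.593 in wild-type saline. It rose in rd10 by 1.90 ± 0.39 under GSK (edgeR adjusted p = 0.00883) and by 2.57 ± 0.46 under saline (edgeR adjusted p = 0.00212). Syk rose by 1.27 and 2.51, and Was, an activator of actin branching in blood cells, by 2.85 and 3.02 in the GSK and saline arms. Wipf1, a partner of Was, rose by 1.43 ± 0.27 under saline (edgeR adjusted p = 0.00175). The part of infiltrating or activated microglia in these values was not tested.

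Taken over all 10 companion lists, 79 of 83 genes were tested. Of these, 8 rose and 12 fell in rd10 in the GSK arm, 19 rose and 15 fell in the saline arm, and 12 rose and 21 fell with GSK in rd10. Over all tested genes, 15.4% rose and 10.9% fell in the GSK arm, 21.5% rose and 19% fell in the saline arm, and 17.6% rose and 15.2% fell with GSK in rd10. Leaving out the lens-bearing libraries kept replicate 1 alone in wild-type saline. Fewer of all tested genes were then called lower in both arms, so a lost call is not particular to the companions. Without the lens-bearing libraries the companions called were 9 in the GSK arm and 20 in the saline arm. Of the companions named above, 13 were called in the GSK arm and 8 of these stayed called, Hmgn3, Ppara, Acadm, Grm6 and Osbpl6 being lost. In the saline arm 13 of 25 stayed called, and Il11ra1, Hmgb2, Hmgn3, Hmgn5, Mis12, Mars2, Rars2, Tars2, Slc25a20, Grm6, Osbpl6 and Ptdss1 were lost. With GSK in rd10, 12 of 18 stayed called, and Hmgb2, Hmgn5, Mis12, Wipf1, Osbpl3 and Osbpl6 were lost. The list medians in the GSK and saline arms, set against 0.01 and 0.02 over all tested genes, were -0.19 and 0.28 for the genes around Ccl27a, -0.16 and -0.12 for the HMG families, -0.03 and 0.17 for kinetochore genes, and -0.03 and -0.13 for the tRNA synthetases. They were -0.06 and 0.19 for fatty acid oxidation, -0.12 and 0.18 for glutamate receptors, 0.24 and 0.31 for partners of Hcls1, 0.02 and -0.01 for the oxysterol-binding family, and -0.11 and -0.10 for the Pisd genes.

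The effect of GSK was tested within each genotype. Because the genes had been chosen as low in both rd10 groups, large recoveries with GSK in rd10 were selected against. In rd10, Cpt1a alone of the 10 passed, in the downward direction (-0.32 ± 0.09, edgeR adjusted p = 0.0155), where 15.2% of tested genes fell and 17.6% rose. All 3 GSK-treated rd10 retinas were below all 3 saline-treated ones. Over 20 alternative settings the value of Cpt1a ran from -0.41 to -0.01, the adjusted p from 0.00346 to 0.961, and 15 settings kept the call. The call was lost without rd10 GSK replicate 2 (-0.22, adjusted p = 0.0646), without rd10 saline replicate 3 (-0.25, adjusted p = 0.0742) and with the rd10 groups fitted alone (-0.33, adjusted p = 0.0638). It was -0.22 (adjusted p = 0.0975) without the libraries that carry lens transcripts, and -0.01 (adjusted p = 0.961) when libraries were scaled on inner retina genes.

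The other 9 gave values between -0.30 (Pisd-ps2) and 0.20 (Hmgn2) with GSK in rd10, and none passed. Left out in turn, 1 library each brought Hmgn2 (0.37, without rd10 GSK replicate 1) and Osbpl8 (-0.23, without rd10 saline replicate 2) past the threshold, and inner retina scaling brought Hmgn2, Aars2, Grm8 and Ablim1 above 0 and past it. The 95% interval was -0.15 to 0.10 for Ablim1, -0.28 to 0.07 for Grm8, -0.03 to 0.27 for Aars2, -0.34 to 0.08 for Osbpl8 and -0.27 to 0.33 for Hcls1. It was wider for Hmgn2 (-0.15 to 0.55), Ccl27a (-0.52 to 0.67), Pisd-ps2 (-0.84 to 0.25) and Spc25 (-0.60 to 0.99).

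In wild type, GSK moved 0 of the 10 past the threshold, where 0.532% of all tested genes passed. At an unadjusted p under 0.05 the count was also 0, as it was with limma-voom and with DESeq2 after adjustment. The values ran from -0.22 (Osbpl8) to 0.18 (Spc25). Osbpl8 read 98.0, 101 and 111 CPM in wild-type GSK against 121 and 120.1 in wild-type saline, without overlap (-0.22 ± 0.10, edgeR adjusted p = 0.57). It passed only when these groups were fitted alone (-0.22, adjusted p = 0.00994). The genotype by GSK interaction was likewise called for 0 of 10, where 12.5% of tested genes were called, with 0 at an unadjusted p under 0.05 and 0 by limma-voom and DESeq2. Choosing genes low in both arms favours a small interaction, and nothing is read from that count. The interaction values ran from -0.33 (Pisd-ps2) to 0.22 (Aars2), and that of Cpt1a was -0.29 ± 0.13 (edgeR adjusted p = 0.189), so its drug effect in rd10 is not shown to differ from that in wild type.

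**Figure D4:**
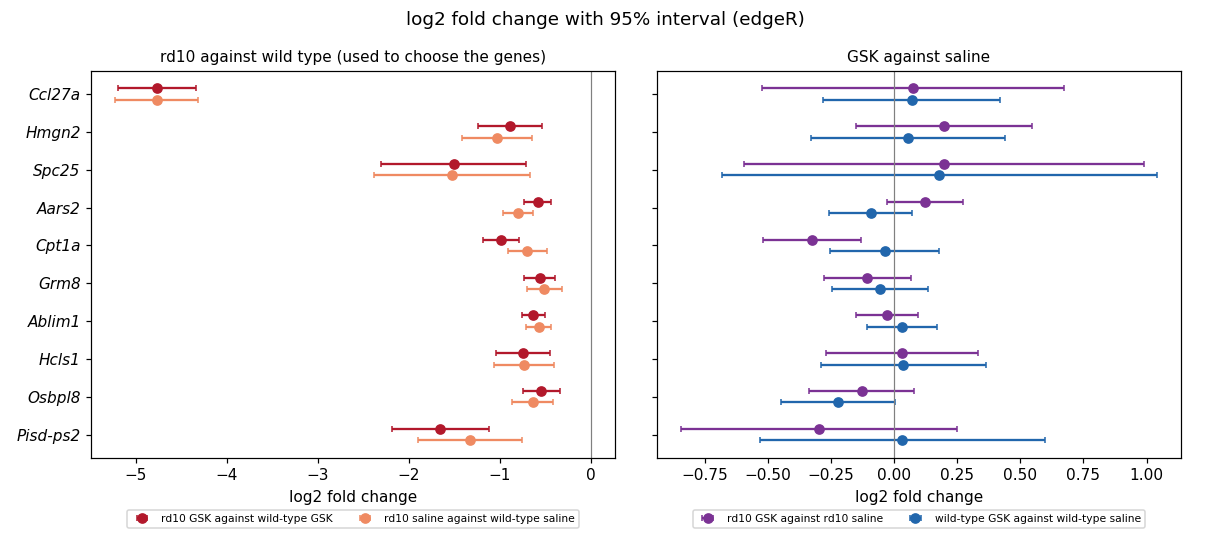
Log2 fold change with its 95% interval for each of the 10 genes, on the left for rd10 against wild type in the GSK and saline arms, which chose the genes, and on the right for GSK against saline in rd10 and in wild type. The interval of Cpt1a with GSK in rd10 (-0.52 to -0.13) excludes 0, and the other intervals on the right include it.

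Genes whose profile was most like the mean of the 10 over the 11 retinas were Ntm (Pearson r = 0.981), Sun2 (0.981), Neurl4 (0.978), Dcaf5 (0.977), Nol4l (0.976) and Tpgs2 (0.976), among genes with a mean of at least 5 CPM. They were picked for that likeness, so their levels are a description. Sun2, a protein of the nuclear envelope, averaged 9.47 ± 0.760 CPM in rd10 GSK, 8.75 ± 0.301 in rd10 saline, 33.7 ± 0.708 in wild-type GSK and 34.0 ± 1.24 in wild-type saline. Ntm, a cell adhesion protein, averaged 153 ± 26.6, 149.6 ± 8.54, 247 ± 4.97 and 261 ± 8.28 CPM in the same 4 groups. All 6 counted as lower in rd10 in both arms. Within the 10 genes, the correlation with their own mean ran from 0.92 (Hcls1) to 0.99 (Ablim1), with each gene part of that mean.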

How the data were processed

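The authors deposited 1 table of raw read counts per Ensembl gene for 11 libraries. Per the submitters' processing notes, bcl2fastq, HISAT2 2.1.0, HTSeq and edgeR were used, with the builds NCBIM37 and mm9. How HTSeq treated strand and which annotation it read are not stated in those notes. Values of overlapping genes and near-identical copies are therefore uncertain. Per the labels' protocols, libraries were stranded and made from polyA RNA.

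The 10 genes, the companion lists (83 genes of their families and pathways, 79 tested) and the marker lists were chosen with earlier results of these data known. The companion list of Ablim1 is not reported here. In edgeR 4.0.16 (R 4.3.3), low genes were removed by filterByExpr (at least 10 counts, 15 in total) and libraries were TMM-scaled. All 11 libraries entered 1 quasi-likelihood fit of the 4 groups, which had been tested on simulated data, and p-values were adjusted by Benjamini-Hochberg over all 17099 tested genes, with 0.05 as the threshold. "Fell", "rose" and "passed" refer to that threshold. The wild-type saline group has 2 animals, and its spread is taken from all groups. The labels number the animals within groups; p-values measure the spread between these animals. No pair of libraries agreed within sampling noise. Alternatives were limma 3.58.1 (voom), DESeq2 1.42.0, its size factors in edgeR, scaling on inner retina genes, no count filter, a replicate block, an Xist term, fits of the compared groups alone, and fits without libraries.

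Beyond the 10 genes, those named are Pde6b and Kdm1a, companions called in rd10 saline against wild-type saline (at most 4 a list, at least 1 CPM), neighbours lower in both arms, the 6 genes most alike in profile, and copies that share sequence. Gene order, exon lengths and shared 50-base stretches come from GENCODE M21 (GRCm38), not the authors' build, and gene names from the same release by Ensembl identifier. Marker genes were summed as CPM per library.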

Additional observations from a re-analysis of the deposited data

Results flagged for a closer look

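The rd10 effect differed between the GSK and saline arms, by the interaction term in edgeR, for 10 of the 25 companions named for their saline-arm call. Picking genes called in the saline arm favours a large interaction, and nothing is read from that count. Of all 79 tested companions, 7 were called with a positive and 7 with a negative interaction, where 12.5% of all tested genes were called. Each value is the rd10 effect under GSK minus that under saline on the log2 scale. In the HMG families it was 0.87 ± 0.11 for Hmgn1 (adjusted p = 0.000672), -0.46 ± 0.10 for Hmgn3 (adjusted p = 0.0112) and -0.54 ± 0.11 for Hmgn5 (adjusted p = 0.00888). Among the mitochondrial tRNA synthetases it was 0.74 ± 0.19 for Mars2 (adjusted p = 0.0276). In fatty acid oxidation it was 1.77 ± 0.29 for Ppara (adjusted p = 0.00374), 0.51 ± 0.11 for Acadvl (adjusted p = 0.0143) and 0.66 ± 0.09 for Acadm (adjusted p = 0.00144). For Grm6 it was -0.50 ± 0.09 (adjusted p = 0.00525), for Osbp2 0.95 ± 0.19 (adjusted p = 0.0108) and for Ptdss1 -0.26 ± 0.07 (adjusted p = 0.0279). Groups of 3 or fewer animals were not searched for single outlying retinas.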

How the results depend on the processing

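The 2 genotype contrasts kept their sign for all 10 genes in all 20 alternative settings. The genes were chosen on these contrasts in the same libraries, so nothing is read from the kept signs and calls. All 10 counted as lower in every setting, except that Spc25 was lost without the lens-bearing libraries (-1.49 in the GSK arm, -1.65 in the saline arm), without wild-type saline replicate 1 (-1.41, saline arm) and with only the compared groups fitted (-1.51, GSK arm); fits without 1 library gave 9 to 10 in the saline arm. With scaling on inner retina genes, the median of all genes was 0.33 in the contrast of GSK against saline in rd10. It was 0.16 in the GSK arm, 0.08 with GSK in wild type and -0.06 in the saline arm. Those inner retina genes include bipolar markers, of which 10 of 12 fell with GSK in rd10. Under that scaling the values with GSK in rd10 were 0.21 for Grm8, 0.29 for Ablim1, 0.19 for Osbpl8 and 0.020 for Pisd-ps2, all of the other sign, 0.51 for Hmgn2, 0.44 for Aars2 and -0.01 for Cpt1a, and 4 genes were called, Hmgn2, Aars2, Grm8 and Ablim1, with 1 interaction call (Aars2, 0.45).

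The count of genes called with GSK in rd10, 1 in the values reported, was 0 without the lens-bearing libraries, 0 with only the compared groups fitted, and 0 to 2 without 1 library at a time. Cpt1a was lost with only the compared groups fitted (-0.33), without rd10 saline replicate 3 (-0.25) and without rd10 GSK replicate 2 (-0.22). Hmgn2 passed without rd10 GSK replicate 1 (0.37), and Osbpl8 passed without rd10 saline replicate 2 (-0.23). Over the fits that leave out 1 library, values of uncalled genes with GSK in rd10 crossed 0: Ccl27a -0.078 to 0.34, Hmgn2 -0.015 to 0.37, Spc25 -0.26 to 0.53, Ablim1 -0.069 to 0.012 and Hcls1 -0.072 to 0.18. In wild type, 1 gene (Osbpl8) was called with only the compared groups fitted. Companion genes called were 34 in the saline arm and 20 without the lens-bearing libraries, and 20 in the GSK arm, 9 without those libraries and 11 to 27 without 1 library. Neighbours lower in both arms, 10.8% in the values reported, were 6.45% without the lens-bearing libraries, an alternative chosen after seeing the data. The NRL core was left in 1 gene with the reverse complement left out. The cause of these shifts was not tested. Ccl27a did not pass the count filter when the rd10 groups were fitted alone and has no value there, and the interaction needs all 4 groups. Where a wild-type saline library is left out, the other is assumed to vary like the other groups.

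Deviations from the group means correlated above 0.1 in 6 of 15 pairs of same-numbered animals and in 4 of 30 other pairs. The highest value, 0.39, joined the 2 lens-bearing libraries. Not every same-numbered pair exceeded 0.1, so the numbers were not taken to pair the animals. With a replicate block 10 and 10 genes were lower in the genotype contrasts, 1 (Cpt1a, -0.33) was called with GSK in rd10, 0 in wild type and 0 for the interaction. Ccl27a had 6 to 12 counts a library in rd10, which limits how closely its rd10 groups can be compared.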
